A study of Mus musculus with 6 samples.

Results

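Aminoacyl-tRNA synthetases join each amino acid to the transfer RNAs that carry it to the ribosome, and 37 of the 17691 genes in the deposited count table are described here. They were chosen by gene symbol (a one-letter amino acid code followed by "ars", with or without a final 1 or 2, and Eprs, Farsa, Farsb, Fars2, Ears2 and Pars2) and by a minimum of 10 counts in at least 3 libraries. All 37 genes whose symbol matched passed the minimum, so none was lost to it. By their known site of action, 18 encode cytosolic enzymes, 17 encode mitochondrial enzymes, and the remaining 2, Gars and Kars, encode enzymes used in both compartments. The methionine enzyme is listed as Mars, which the RefSeq annotation calls Mars1.

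The RNA came from erythroblasts, immature red cells that still have a nucleus. They were purified from C57BL/6J fetal liver as cells lacking TER119, an antigen of later erythroid stages, and cultured with erythropoietin (Epo), which erythroid cells need to survive and divide. Untreated cells (3 libraries) were compared with cells given carbon dots (CDs, 1 ug/ml, 30 h; 3 libraries), nanometre-sized particles of carbon made here from the plant Codonopsis pilosula. Both groups shared the strain, the cell purification and the Epo medium, and the labels name no genetic change. The labels do not say whether the replicates were separate cultures, litters or days, so the p-values below measure only the spread between these libraries, which may be technical in part.

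Each synthetase recognises one amino acid and its transfer RNAs, spends ATP to activate the amino acid and transfers it to the RNA end. Mitochondria make proteins with transfer RNAs of their own, and most amino acids therefore have a second, nuclear-encoded enzyme that is imported into the organelle. Erythroblasts have a high demand for charged transfer RNAs because they make globin in bulk. Most genes of cytosolic synthetases are known targets of ATF4, the transcription factor of the integrated stress response and amino acid response, which binds a C/EBP-ATF response element together with a C/EBP partner.

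Short motifs were searched around the start sites. RefSeq promoter windows (build GRCm38.p6, 250 bases before an annotated start and 50 bases from it on) were found for 27 of the 37 genes. Genes without a window included Cars, Hars, Hars2, Lars, Nars, Pars2, Rars, Vars and Wars. The letters of the C/EBP-ATF response element, TGATGNAA on either strand, occurred in the windows of 4 of 11 cytosolic genes (Aars, Iars, Tars and Yars), in Gars, and in 0 of 14 mitochondrial genes. Among all 27025 genes with a window 4.51% held them, and among the 9874 tested genes with a window 2.97% did. The other 7 cytosolic windows did not hold them, and the difference between the compartments was not tested. The 6 matches are shown because ATF4 is a known regulator of these genes. Each run is the gene's own strand, 5′ to 3′, with the matching letters in capitals. Where the match lies on the opposite strand, the capitals show its reverse complement.
Aars, chr8:111033714-111033753, plus strand: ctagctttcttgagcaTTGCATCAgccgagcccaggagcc
Aars, chr8:111033840-111033869, plus strand: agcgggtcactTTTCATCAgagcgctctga
Gars, chr6:55037955-55037994, plus strand: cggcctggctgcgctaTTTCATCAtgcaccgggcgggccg
Tars, chr15:11399659-11399689, minus strand: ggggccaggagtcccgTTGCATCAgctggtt
Iars, chr13:49682126-49682155, plus strand: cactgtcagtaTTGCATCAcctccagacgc
Yars, chr4:129189895-129189924, plus strand: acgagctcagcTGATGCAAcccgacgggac
The first Aars match began 112 bases before the start, that of Gars 30 and that of Tars 15 bases before it. Those of Yars, Iars and the other Aars match began 3, 7 and 9 bases after the start. The start meant is the annotated start of the window. For Aars and Yars it lies inside the gene's annotated span, not at its first base. The same core, TTGCATCA, stood in Aars, Tars and Iars, and its reverse complement TGATGCAA stood in Yars.

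Another motif was shared by both compartments. GCGCANGC on either strand, the core of the site of NRF1, a transcription factor of many nuclear genes for mitochondrial proteins, occurred in 5 of 14 mitochondrial windows (Iars2, Mars2, Rars2, Vars2 and Wars2), 4 of 11 cytosolic windows (Eprs, Farsb, Sars and Tars) and in Kars, against 22.2% of the tested genes with a window. Matches in 3 of the mitochondrial genes are shown, as they share the core GCATGCGC or its reverse complement, again in capitals.
Rars2, chr4:34614890-34614929, plus strand: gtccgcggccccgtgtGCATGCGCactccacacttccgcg
Vars2, chr17:35667615-35667654, minus strand: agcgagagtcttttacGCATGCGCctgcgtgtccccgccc
Wars2, chr3:99141010-99141049, plus strand: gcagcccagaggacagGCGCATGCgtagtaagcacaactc
The E-box CACGTG, the site bound by MYC and related factors, stood in 4 of 11 cytosolic windows (Aars, Farsb, Iars and Tars) and in 1 of 14 mitochondrial windows (Ears2), against 11.8% of tested genes. CCGGAAG on either strand, a core of ETS-family sites, stood in 3 of 11 cytosolic windows, 4 of 14 mitochondrial windows and both Gars and Kars, against 20.4% of tested genes. The motifs were searched as fixed letters, in Tars an E-box and an NRF1 match lie side by side, and a match shows the letters only, not binding.

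Library totals ran from 17695997 to 20066581 expected counts, and libraries of one group differed by far more than counting noise (chi-square per degree of freedom of at least 11.5 between untreated and 41.7 between CDs libraries). In both groups the library numbered 3 stood apart from those numbered 1 and 2, and libraries with the same number deviated from their group means together. Erythroblast markers held 7.0%, 6.95% and 6.17% of counts in untreated 1, 2 and 3 and 6.85%, 7.07% and 5.84% in CDs 1, 2 and 3. The 15 macrophage markers summed to 0.0174%, 0.0515% and 0.479% of counts in untreated 1, 2 and 3 and to 0.0405%, 0.171% and 0.618% in CDs 1, 2 and 3. None of these genes was at 0 in all libraries, and all 13 that could be tested had a fitted value above 0 (median log2 fold change 0.67, CDs against untreated; 0 passed with edgeR and 11 were higher with CDs in DESeq2 with the replicate number as a block, beside 7.76% of all genes called higher). The granulocyte markers summed to 0.0261%, 0.0827% and 0.211% in the untreated and 0.0375%, 0.127% and 0.222% in the CDs libraries, with 9 of 10 fitted values above 0 and 3 called higher in DESeq2 with the block. Hepatocyte markers summed to 0.0163% to 0.0357% in untreated and 0.0241% to 0.0471% in CDs libraries, with 8 of 8 above 0 and 2 called higher in that fit. Markers of mast cells summed to at most 0.017%, megakaryocytes to at most 0.0139% and endothelial cells to at most 0.00895%. Fitted values were above 0 for 1 of 4 tested mast cell, 7 of 8 megakaryocyte and 4 of 5 endothelial markers. DESeq2 with the block called 0, 1 and 2 of them higher, and 1 endothelial marker lower.

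Cytosolic enzymes were the far more abundant class. On the FPKM scale, which divides by transcript length and so allows genes to be compared, the median cytosolic level was 71.4, 67.5 and 46.8 FPKM in untreated 1, 2 and 3 and 71.2, 60.8 and 37.7 FPKM in CDs 1, 2 and 3. Mitochondrial enzymes had medians of 8.45, 8.11 and 6.14 FPKM in the untreated and 8.30, 7.06 and 6.14 FPKM in the CDs libraries. The ratio of these medians was 8.44, 8.32 and 7.63 in the untreated and 8.57, 8.61 and 6.14 in the CDs libraries, so every library held several times more cytosolic than mitochondrial transcript per gene. Summed over its 18 genes the cytosolic class took 0.523%, 0.504% and 0.355% of counts in the untreated libraries and 0.522%, 0.436% and 0.284% in the CDs libraries.

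Alanyl-tRNA synthetase Aars had the highest mean level of the 37 genes, 203 ± 24.0 FPKM in untreated and 187 ± 46.3 FPKM in CDs libraries (SD, n = 3 each). Valyl-tRNA synthetase Vars followed with 173 ± 35.4 and 148 ± 52.7 FPKM, then Nars (asparagine) with 153 ± 35.3 and 140 ± 37.9 FPKM, Gars (glycine) with 144 ± 32.9 and 127 ± 42.0 FPKM and Hars (histidine) with 133 ± 36.1 and 112 ± 38.9 FPKM. Neighbours in this order lay within one another's spread. The lowest cytosolic gene, Wars (tryptophan), had 27.9 ± 1.67 and 27.4 ± 3.29 FPKM. It overlapped the top of the mitochondrial class, which Iars2 (isoleucine) led with 30.7 ± 6.75 and 28.1 ± 7.30 FPKM ahead of Tars2 (threonine) with 24.4 ± 6.22 and 22.8 ± 8.34 FPKM. The remaining 15 mitochondrial genes had means over all libraries from 12.5 FPKM (Rars2, arginine) down to 1.71 FPKM (Pars2, proline, and Wars2, tryptophan). The least abundant by reads, Pars2, still had 67 to 99 counts in each library.

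**Figure D1:**
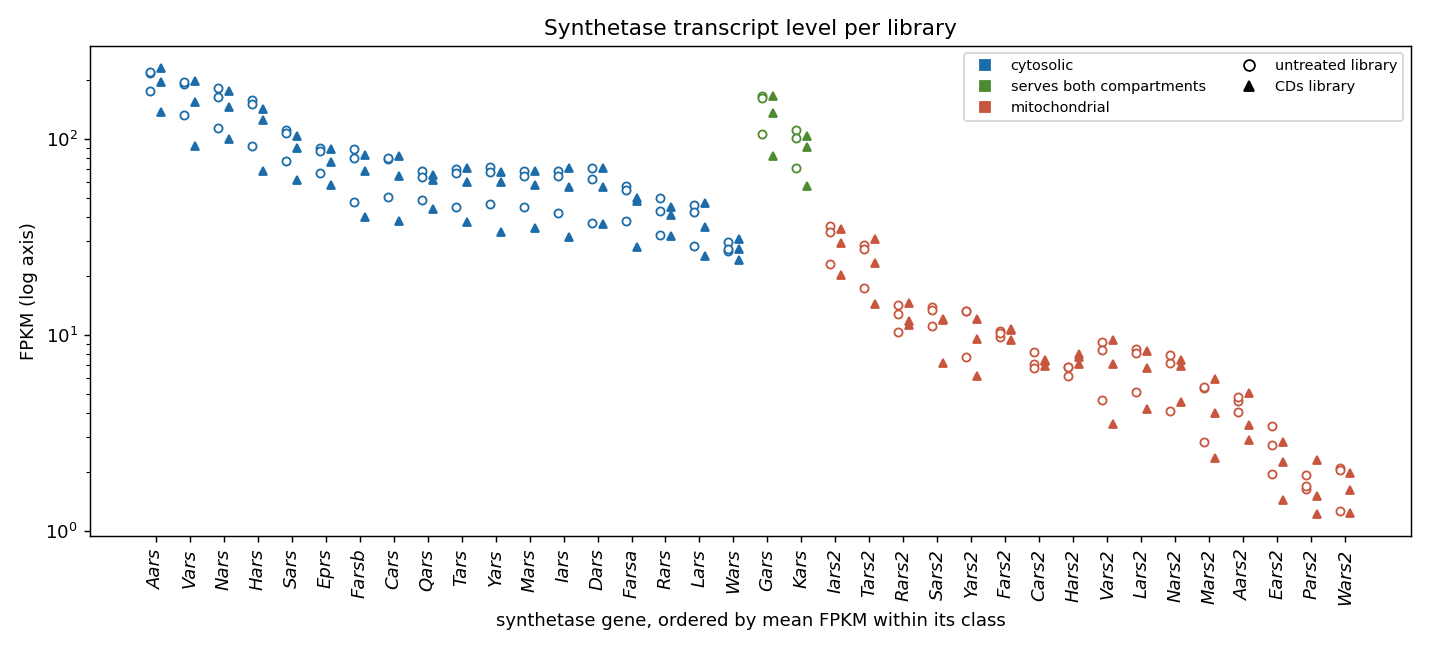
FPKM (log axis) of 36 of the 37 synthetase genes in every library; open circles are untreated and filled triangles CDs libraries, with cytosolic genes in blue, mitochondrial genes in red and the 2 genes of both compartments in green. The cytosolic genes run from a mean of 195 FPKM (Aars) to 27.7 FPKM (Wars), the mitochondrial ones from 29.4 FPKM (Iars2) to 1.71 FPKM, and circles and triangles intermingle for every gene but Hars2.

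With CDs, the fitted log2 fold change of 36 of the 37 synthetase genes was below 0, but none passed the test. Fitted values below 0 made up 48.1% of the 12283 genes tested. The median was -0.15 for the 18 cytosolic genes (all below 0, from -0.28 to -0.05), -0.10 for the 17 mitochondrial genes (16 below 0, from -0.37 to 0.06) and -0.20 for Gars and Kars, beside 0.01 for all genes tested. In edgeR's quasi-likelihood test 0 of 37 had an adjusted p under 0.05 (0% of all genes passed), and 0 of 37 had an unadjusted p under 0.05. Their adjusted p-values lay between 0.994 and 0.997. DESeq2 and limma-voom without a block also called 0 of 37. On the CPM scale the untreated and CDs libraries overlapped for all 37. Over all genes, 2.33% had CDs libraries entirely below the untreated ones and 2.37% entirely above. Overlap for all 37 is thus near the share over all genes. In bulk RNA, fewer cells that express a gene and less of its RNA per cell cannot be told apart. The 37 values share the same 6 libraries and are not independent of one another.

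Within libraries of the same number the differences were less variable. That libraries of one number belong together is an assumption, as the labels state no pairing. Comparing CDs with untreated within each number, 18 of the 37 genes (11 cytosolic, 5 mitochondrial, Gars and Kars) were lower in 3 of 3 pairs and 0 were higher in all 3, beside 26.2% of all genes that were lower in 3 of 3. The members' median difference was -0.02 in the pair numbered 1, -0.21 in the pair numbered 2 and -0.28 in the pair numbered 3, with 20, 33 and 34 of the 37 genes below 0. For all genes tested these medians were 0.04, 0.00 and 0.00. The pair numbered 1 thus held little of the difference. Cytosolic medians were -0.02, -0.20 and -0.32 and mitochondrial medians 0.01, -0.26 and -0.17.

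With the replicate number as a block, edgeR again called 0 of 37 (0.0407% of all genes passed, in either direction). At an unadjusted p under 0.05 it had 12 of 37 synthetase genes lower and 0 higher, beside 11.9% of all genes lower. These 12 were the cytosolic Hars, Farsa, Sars, Farsb, Yars, Cars and Nars, the mitochondrial Sars2, Yars2 and Iars2, and Gars and Kars. DESeq2 with the block called 1 of 37, Hars, which fell by 0.32 on the log2 scale (adjusted p = 0.0320, and from 0.0320 to 1 over the 23 settings run), beside 2.09% of all genes called lower. The macrophage markers, given above, had higher medians with CDs in each numbered pair (1.32, 1.98 and 0.46 log2 over 13 genes), and so had the granulocyte markers (0.47, 0.60 and 0.02 over 10 genes) and the hepatocyte markers (0.21, 0.60 and 0.41 over 8 genes). Endothelial marker medians were also higher in each pair (1.24, 1.27 and 0.32 over 5 genes). Megakaryocyte and mast cell marker medians were higher in the pairs numbered 1 and 2 only. Erythroblast marker medians were lower in each pair (-0.08, -0.11 and -0.14 over 9 genes). Of these 9 fitted values 7 were below 0, beside 48.1% of all genes, and 0 were called in edgeR or in DESeq2 with the block. The part of these cells in the synthetase values was not tested.

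**Figure D2:**
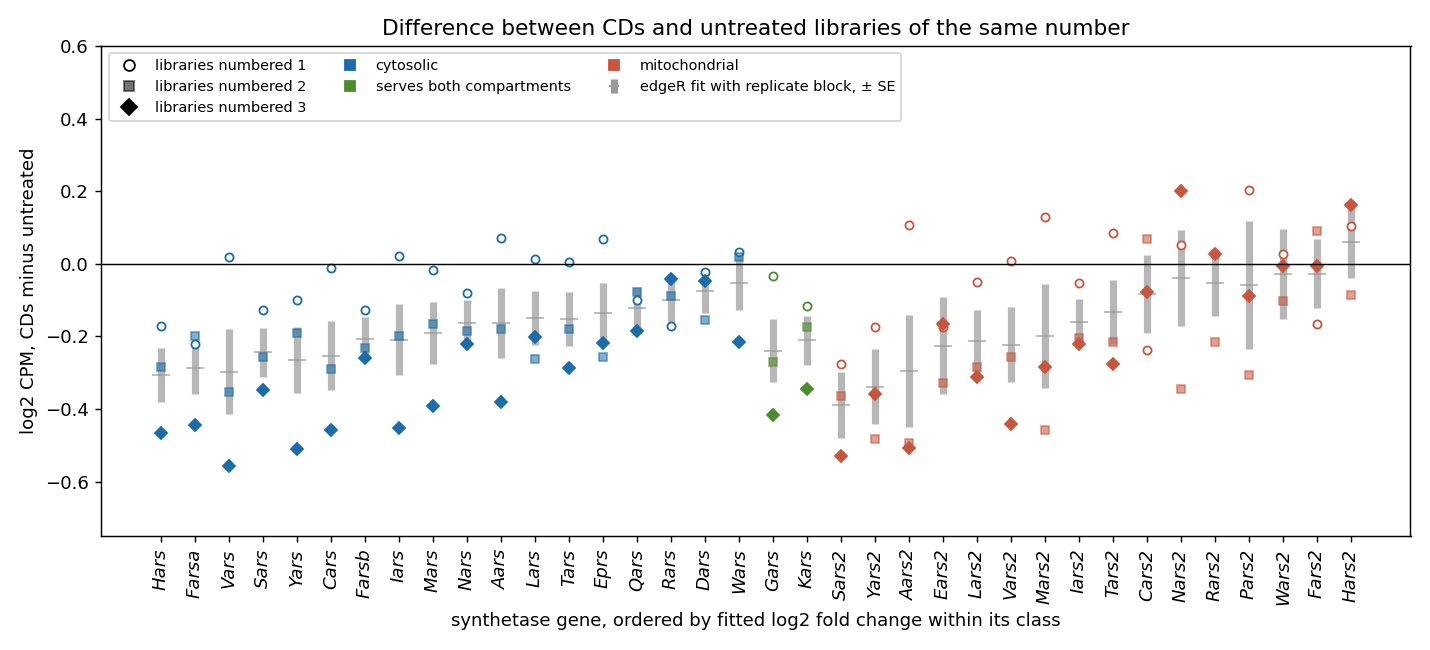
Difference in log2 CPM between CDs and untreated libraries of the same number for 36 of the 37 synthetase genes (circles, squares and diamonds for numbers 1, 2 and 3), with the edgeR estimate with replicate block as a horizontal tick and ± 1 SE as a grey bar. In the pair numbered 1 the genes lie on both sides of 0 (median -0.02), while 33 and 33 of the 36 drawn lie below 0 in the pairs numbered 2 and 3.

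Among cytosolic enzymes, Hars and Farsa had the most negative fitted values. CPM, the count scaled to a common library total, is used from here on to compare libraries. Hars, on chromosome 18, stood at 325, 306 and 180 CPM in untreated 1, 2 and 3 and at 289, 251 and 131 CPM in CDs 1, 2 and 3. Every CDs library lay below the untreated library of its number, yet CDs 1 and CDs 2 lay above untreated 3. The log2 fold change was -0.28 ± 0.38 (SE, edgeR, adjusted p = 0.994) and -0.31 ± 0.08 with the block (adjusted p = 0.0981).

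Farsa, the catalytic alpha subunit of phenylalanyl-tRNA synthetase (chr8:84856969-84869257, plus strand), had 108, 101 and 67.2 CPM in the untreated and 92.3, 88.3 and 49.4 CPM in the CDs libraries. Its beta subunit Farsb had 187, 165 and 95 CPM against 171, 141 and 79.4 CPM. Both subunits were lower in 3 of 3 pairs. For Farsa the groups overlapped through untreated 3 alone, and for Farsb CDs 1 also lay above untreated 2. Farsa had a log2 fold change of -0.26 ± 0.31 and Farsb of -0.19 ± 0.38 (edgeR, adjusted p = 0.994 for both), and -0.29 ± 0.07 and -0.21 ± 0.06 with the block (adjusted p = 0.0997 and 0.109).

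Sars, the serine enzyme, gave 423, 401 and 278 CPM in the untreated and 387, 335 and 219 CPM in the CDs libraries, lower in 3 of 3 pairs (-0.23 ± 0.28, edgeR, adjusted p = 0.994). Yars, the tyrosine enzyme, gave 197, 185 and 122 CPM against 183, 162 and 85.8 CPM, also lower in 3 of 3 pairs (-0.22 ± 0.34). Cars, the cysteine enzyme, gave 201, 198 and 122 CPM against 199, 162 and 88.9 CPM (-0.21 ± 0.36). For Cars the first pair was nearly equal, and the gap lay in the pairs numbered 2 and 3.

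The most abundant enzymes, Vars and Aars, differed between pairs in sign. Vars (chr17:35000907-35016329, plus strand) had 821, 825 and 538 CPM in the untreated and 831, 646 and 365 CPM in the CDs libraries (-0.24 ± 0.35). Aars (chr8:111027778-111055569, plus strand) had 770, 776 and 597 CPM against 809, 686 and 459 CPM (-0.13 ± 0.25). CDs 1 was the highest of the 6 libraries for both genes, and CDs 3 was the lowest. Of the other cytosolic enzymes, Iars (-0.16), Mars (-0.16), Nars (-0.15), Lars (-0.13), Tars (-0.13), Eprs (-0.12, the joined enzyme for glutamate and proline), Qars (-0.11), Rars (-0.11), Dars (-0.07) and Wars (-0.05) had fitted log2 fold changes between -0.16 and -0.05. Wars had 86.6, 77.3 and 76.0 CPM in the untreated and 88.6, 78.4 and 65.4 CPM in the CDs libraries, and was lower in the pair numbered 3 alone.

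Both enzymes that serve cytosol and mitochondria were lower in 3 of 3 pairs. Gars, the glycine enzyme, gave 411, 395 and 251 CPM in the untreated and 401, 328 and 188 CPM in the CDs libraries (-0.20 ± 0.34, edgeR, adjusted p = 0.994). Kars, the lysine enzyme, gave 238, 215 and 146 CPM against 219, 191 and 115 CPM (-0.19 ± 0.31). With the block their unadjusted p-values in edgeR were 0.0339 and 0.0223, with adjusted p = 0.140 and 0.122.

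In the mitochondrial class, Sars2, the serine enzyme, had the most negative fitted value of all 37 genes. Sars2 (chr7:28741957-28753879, plus strand) gave 26.3, 25.3 and 19.1 CPM in the untreated and 21.7, 19.7 and 13.2 CPM in the CDs libraries. CDs 1 and 2 lay between untreated 2 and untreated 3, and CDs 3 lay below all others. The log2 fold change was -0.37 ± 0.25 (edgeR, adjusted p = 0.994) and -0.39 ± 0.09 with the block (adjusted p = 0.0957). Counts and FPKM of Sars2 matched each other less closely across libraries than for most genes (root mean square deviation 0.0747 log2, beside a median of 0.00387 over 6425 genes). From the FPKM table its log2 fold change was -0.31 on the log2(FPKM + 1) scale.

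Yars2 and Aars2, the tyrosine and alanine enzymes, followed. Yars2 gave 21.7, 21.3 and 12 CPM in the untreated and 19.2, 15.2 and 9.35 CPM in the CDs libraries, lower in 3 of 3 pairs (-0.33 ± 0.36, edgeR, adjusted p = 0.994). Aars2 gave 15.8, 16.4 and 12.7 CPM against 17.0, 11.6 and 8.87 CPM (-0.26 ± 0.28). CDs 1 had the highest Aars2 value of the 6 libraries, and CDs 2 and 3 the lowest. Ears2 (glutamate) gave 9.56, 7.16 and 4.89 CPM against 8.47, 5.68 and 4.34 CPM (-0.23 ± 0.37), and Lars2 (leucine) gave 34.3, 32.7 and 19.6 CPM against 33.1, 26.9 and 15.8 CPM (-0.19 ± 0.35). Both were lower in 3 of 3 pairs. The gene Ears2 overlaps the gene Ubfd1 on the opposite strand, and the protocol does not mark strand as far as it is described.

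For the most abundant mitochondrial enzymes, Iars2 and Tars2, the untreated and CDs libraries overlapped and neither gene was called. Iars2 gave 131, 121 and 80.3 CPM in the untreated and 126, 105 and 68.9 CPM in the CDs libraries (-0.15 ± 0.29). Tars2 gave 69.5, 63.5 and 40.1 CPM against 73.7, 54.7 and 33.1 CPM (-0.10 ± 0.36). Iars2 was lower in 3 of 3 pairs and Tars2 in 2 of 3. Cars2, the cysteine enzyme, gave 15.9, 13.2 and 12.3 CPM against 13.4, 13.8 and 11.6 CPM (-0.09 ± 0.17).

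Hars2 was the exception in sign and Fars2 was the steadiest enzyme. Hars2, for histidine, gave 16.3, 16.1 and 13.4 CPM in the untreated and 17.5, 15.1 and 15 CPM in the CDs libraries (0.06 ± 0.15, edgeR, adjusted p = 0.994). Fars2, for phenylalanine, gave 18.5, 17.5 and 17.8 CPM against 16.5, 18.6 and 17.7 CPM (-0.03 ± 0.13). Neither difference was larger than the spread between libraries on this scale. In the FPKM table, where Hars2 had 6.87, 6.85 and 6.14 against 7.97, 7.06 and 7.69 FPKM, its CDs libraries lay above the untreated ones, and its counts and FPKM matched less closely than for most genes (root mean square deviation 0.0626 log2). Further mitochondrial values were -0.17 for Vars2 and Mars2, -0.07 for Nars2, -0.05 for Rars2, -0.04 for Pars2 and -0.03 for Wars2.

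For 17 amino acids both a cytosolic and a mitochondrial enzyme were measured, which gave 18 gene pairs (both subunits of the phenylalanine enzyme were set against Fars2, and Eprs against Ears2 and against Pars2). The cytosolic gene had the more negative fitted value in 12 pairs and the less negative in 6, with a median difference of -0.04 log2. Per pair, the log2 ratio of cytosolic to mitochondrial level was compared between the groups with an exact two-sided permutation test, which cannot give a p under 0.1 at 3 libraries a group. The ratios tested were of CPM, the scaled counts. The lowest p seen was 0.1 (Sars and Sars2), and every p adjusted over the 18 pairs was 1. A test of this size could pass no pair, so it does not show that the compartments act alike. Within numbered pairs, the difference had one sign in all 3 numbers for 4 of the 18 (Hars, Farsa, Sars and Lars with their partners).

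Histidine had the widest gap. The FPKM ratio of Hars to Hars2 was 23.0, 22.0 and 15 in the untreated and 17.9, 17.7 and 8.86 in the CDs libraries, a difference in fitted log2 fold change of -0.34 (exact permutation p = 0.5, adjusted p = 1). The ratio was lower in the CDs library of each number, and CDs 1 and 2 lay above untreated 3. The starts of the 2 genes overlap by a few bases only, on opposite strands of chromosome 18, and unstranded reads there cannot be assigned to one of them. Farsb, Yars, Wars, Iars2, Cars2 and Fars2 also overlap coding genes on the opposite strand. Phenylalanine came next, with differences of -0.24 for Farsa and -0.17 for Farsb against Fars2 (exact permutation p = 0.5 and 0.7, adjusted p = 1 for both). The FPKM ratio of Farsa to Fars2 was 5.5, 5.63 and 3.71 against 5.32, 4.56 and 2.62, and that of Farsb to Fars2 was 8.41, 8.13 and 4.61 against 8.78, 6.43 and 3.74. Serine went the other way, with a difference of 0.15 for Sars against Sars2 and within-number differences of 0.15, 0.11 and 0.18 in log2 CPM ratio. Its FPKM ratios were 8.07, 7.97 and 6.93 against 8.75, 7.53 and 8.62, so on that scale the groups overlapped and the pair numbered 2 had the opposite sign. Across pairs the median FPKM ratio over the 6 libraries ran from 1.93 (Iars to Iars2) to 46.1 (Aars to Aars2), with a median of 8.60.

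**Figure D3:**
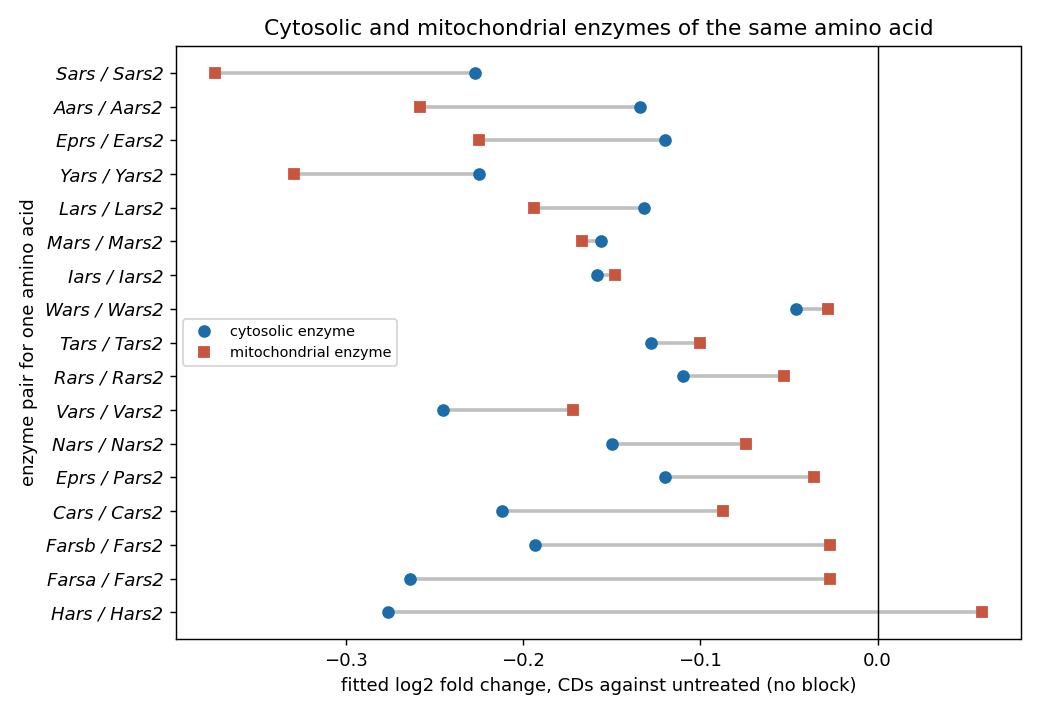
Fitted log2 fold change (edgeR without block, CDs against untreated) of the cytosolic enzyme (blue circle) and the mitochondrial enzyme (red square) in 17 of the 18 gene pairs, joined by a grey line. The cytosolic point lies left of the mitochondrial one in 11 of the 17 pairs drawn, with the longest line for Hars and Hars2 (-0.28 and 0.06), and no point passed the test.

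The larger difference among these libraries ran along their numbers rather than along treatment. Untreated 3 lay more than 0.5 log2 below the mean of untreated 1 and 2 for 27 of the 37 synthetase genes, beside 18.9% of all genes. CDs 3 lay as far below CDs 1 and 2 for 30 of the 37, beside 22.6% of all genes. Median differences in untreated 3 were -0.64 for cytosolic and -0.65 for mitochondrial genes, and in CDs 3 they were -0.86 and -0.67, while the medians of all genes were 0.00 in both groups. With 1 library of that number per group, these values have no replicate check within a group. The macrophage markers had their highest share of counts in the same libraries, 0.479% in untreated 3 and 0.618% in CDs 3, as had the granulocyte markers (0.211% and 0.222%). Erythroblast markers had their lowest share there (6.17% and 5.84%). The part of these cell types in the synthetase values of the libraries numbered 3 was not tested.

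Some enzymes stood outside this pattern. Untreated 3 differed from untreated 1 and 2 by -0.01 log2 for Fars2, -0.11 for Wars, -0.18 for Pars2, -0.24 for Cars2 and -0.27 for Hars2, and CDs 3 from CDs 1 and 2 by 0.02, -0.35, -0.21, -0.23 and -0.11. At the other end stood Nars2 (-1.05 and -0.71), Mars2 (-0.98 and -1.10), Vars2 (-0.97 and -1.29), Dars (-0.90 and -0.86) and Farsb (-0.89 and -0.96). Wars was the one cytosolic gene under 0.5 log2 in both groups, and the mitochondrial Rars2 (-0.41 and -0.28) was also under it in both. Wars encodes the tryptophan enzyme, which interferons are known to induce in many cell types.

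**Figure D4:**
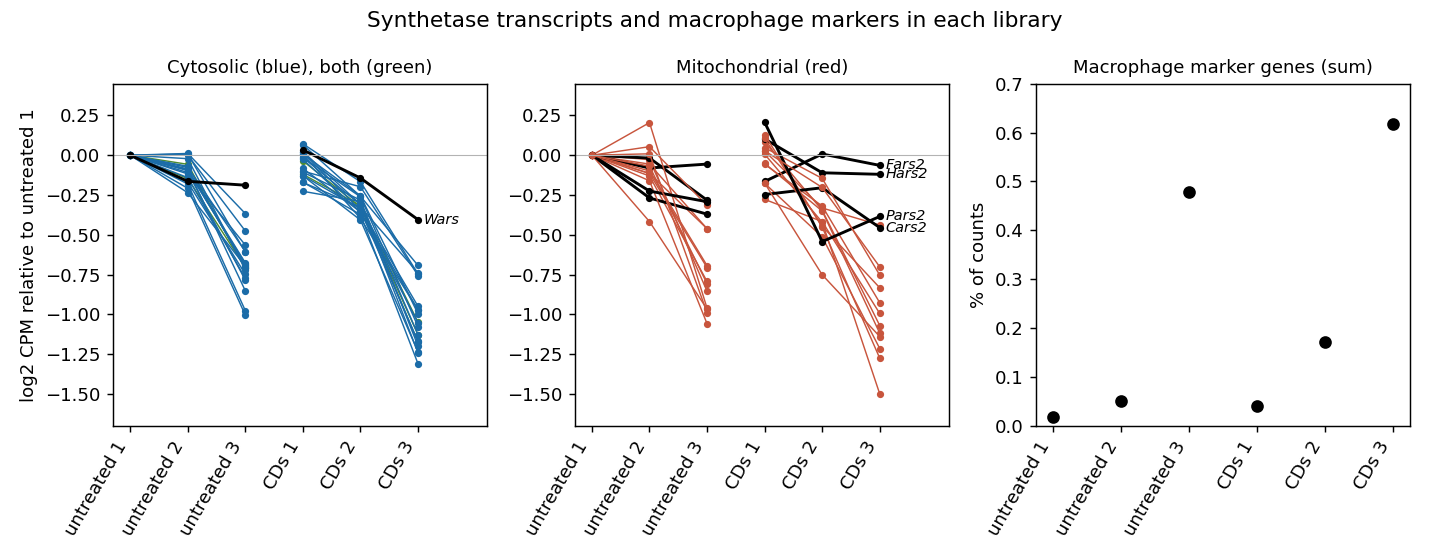
Left and middle, log2 CPM of 36 of the 37 synthetase genes (cytosolic, shared and mitochondrial) relative to untreated 1, with lines joining the values of one gene within a group (the numbers carry no order); black lines mark Wars, Fars2, Hars2, Pars2 and Cars2. Right, the summed macrophage markers as a percentage of counts, which are highest in untreated 3 (0.479%) and CDs 3 (0.618%), where most synthetase genes are lowest.

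The size and direction of the members' medians depended on single libraries. Without CDs 3, the library with the most macrophage marker counts, the cytosolic median was 0.06 and the mitochondrial median 0.05, and 9 of 37 genes had a value below 0. Without untreated 3 the medians were -0.34 and -0.34 with 37 of 37 below 0, and without CDs 1 they were -0.39 and -0.35 with 36 of 37. Without untreated 2 they were -0.09 and -0.07, and without CDs 2 -0.22 and -0.16. Without untreated 1 the medians were -0.02 and 0.03 with 19 of 37 below 0, and without both libraries numbered 3 they were -0.14 and -0.13 with 35 of 37 below 0.

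Differences between structural classes of the enzymes were not tested, and their values follow. Of the synthetases, 8 sit in the multi-synthetase complex, a large cytosolic assembly (Dars, Eprs, Iars, Kars, Lars, Mars, Qars and Rars). All 8 were below 0 with a median of -0.13, and 5 of them were lower in 3 of 3 pairs. Among all genes 48.1% were below 0 and 26.2% lower in 3 of 3 pairs. The 11 cytosolic enzymes outside the complex were also all below 0, with a median of -0.21 and 7 lower in 3 of 3 pairs. Cytosolic enzymes of class I, whose catalytic domain is a Rossmann fold, had a median of -0.16 (9 genes) and those of class II, built on an antiparallel sheet, -0.17 (8 genes, Eprs left out as it joins both classes). For mitochondrial enzymes the medians were -0.17 (class I, 9 genes, 4 lower in 3 of 3 pairs) and -0.06 (class II, 8 genes, 1 lower in 3 of 3 pairs). Of the genes with a promoter window, the 5 with the C/EBP-ATF letters had a median of -0.16 (from -0.23 to -0.13) and the 8 cytosolic or shared genes without them -0.17 (from -0.26 to -0.07), and these ranges overlapped.

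The genes of the scaffold proteins that hold the complex together were lower in 3 of 3 pairs, beside 26.2% of all genes. EdgeR called 0 of 3 with or without the block. Aimp1 gave 68.9, 59.1 and 41.3 CPM in the untreated and 56.0, 52.2 and 30.9 CPM in the CDs libraries (-0.28 ± 0.30). Aimp2 gave 73.3, 61.1 and 46.3 CPM against 60.5, 54.5 and 35.2 CPM (-0.27 ± 0.27), and Eef1e1, also known as AIMP3, gave 55.4, 44.5 and 22.8 CPM against 44.4, 36.7 and 16.2 CPM (-0.33 ± 0.49). In the pair numbered 1 their median difference was -0.30, beside -0.02 for the 37 synthetase genes. With the block their adjusted p-values in edgeR were 0.0971, 0.0996 and 0.0916.

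Other factors that load or edit transfer RNAs had 12 of 12 fitted values below 0 (median -0.18, 0 called, 6 lower in 3 of 3 pairs). Over all genes, 48.1% were below 0 and 26.2% lower in 3 of 3 pairs. They include Tarsl2, a threonine enzyme whose symbol the rule does not match (-0.22 ± 0.41). Qrsl1, a subunit of the mitochondrial amidotransferase that makes glutaminyl-tRNA where no mitochondrial glutamine enzyme exists, gave 10.8, 9.52 and 7.38 CPM in the untreated and 7.73, 7.60 and 5.55 CPM in the CDs libraries (-0.41 ± 0.24). CDs 1 and 2 lay just above untreated 3. Mtfmt, which formylates the mitochondrial initiator methionyl-tRNA, had -0.21 ± 0.20, and Dtd2, which removes wrongly attached amino acids, -0.25 ± 0.25.

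The listed elongation factors and related genes were also below 0 in every case, beside 48.1% of all genes. The 7 cytosolic genes had a median of -0.21 and all 7 were lower in 3 of 3 pairs, beside 26.2% of all genes. No gene was called by edgeR, and DESeq2 with the block called 2 lower, beside 2.09% of all genes: Eef1a1 (-0.21 ± 0.29 in edgeR, DESeq2 adjusted p = 0.0426) and Eef1b2 (-0.25 ± 0.36, adjusted p = 0.0261). Eef1a1, which delivers aminoacyl-tRNA, had 10700 ± 2530 CPM in the untreated and 9230 ± 2300 CPM in the CDs libraries (SD, n = 3 each). The list counts Eef1e1 again. The 5 mitochondrial genes had a median of -0.15, 0 called and all 5 lower in 3 of 3 pairs, with Guf1 at -0.23 ± 0.41, Gfm1 at -0.15 ± 0.33 and Tsfm at -0.18 ± 0.40.

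Known ATF4 targets outside the synthetases varied with the library number to graded extents and in both directions. Of 28 tested, 14 lay more than 0.5 log2 lower in untreated 3 than in untreated 1 and 2 (18.9% of all genes). In CDs 3 it was also 14, against CDs 1 and 2 (22.6% of all genes). Some, such as Cebpb, Nupr1 and Gpt2, were higher in the library numbered 3 of both groups. With CDs, 23 of the 28 had a fitted value below 0 (median -0.16), beside 48.1% of all genes, and 0 passed in edgeR. In 3 of 3 pairs 19 were lower (26.2% of all genes). Vldlr, Slc7a11, Cebpb and Slc3a2 were the 4 that were higher in 3 of 3 pairs (30.2% of all genes). DESeq2 with the block called 5 lower, beside 2.09% of all genes, and 0 higher: Pycr1, Aldh18a1, Shmt2, Asns and Phgdh, which make proline, serine, glycine or asparagine. Asns, asparagine synthetase, gave 981, 899 and 507 CPM in the untreated and 888, 746 and 360 CPM in the CDs libraries, with untreated 3 at -0.89 and CDs 3 at -1.18 log2 from the others of their group, as for most synthetases. In 4 of the 28 the CDs libraries lay entirely below the untreated ones (Atf5, Ddit3, Sesn2 and Trib3, beside 2.33% of all genes), and in 1, Vldlr, entirely above (2.37%). Ddit3, a stress-induced transcription factor also called CHOP, gave 134, 135 and 131 CPM against 120, 119 and 118 CPM (-0.16 ± 0.09, edgeR, adjusted p = 0.994).

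Ddit3 overlaps Mars on the opposite strand, so reads in the shared stretch cannot be assigned by strand; Mars itself differed by -0.63 and -0.93 log2 in the libraries numbered 3, where Ddit3 differed by -0.04 and -0.02. Trib3 gave 173, 183 and 192 CPM against 168, 171 and 152 CPM, Sesn2 gave 108, 108 and 111 CPM against 99.1, 90.4 and 103 CPM, and Atf5 gave 125, 131 and 123 CPM against 112, 116 and 104 CPM. These 3 stress-induced genes varied little with the library number. Cth, which makes cysteine, had the smallest unadjusted p of the list (0.0850, edgeR, adjusted p = 0.994) with 5.73, 4.86 and 3.08 CPM against 3.49, 2.67 and 1.83 CPM (-0.78 ± 0.37), and Vldlr had 0.59 ± 0.32 at under 1 CPM in every library. Apart from Cth, Atf5 and Vldlr, the genes named from this list were picked after their values were seen.

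Atf4 itself gave 860, 801 and 640 CPM in the untreated and 840, 772 and 541 CPM in the CDs libraries (-0.10 ± 0.22). Another list was built around eIF2alpha, whose phosphorylation is the switch upstream of ATF4. It held the kinases Eif2ak1 to Eif2ak4, the phosphatase subunits Ppp1r15a and Ppp1r15b, the kinase activator Gcn1l1 and eIF2alpha itself (Eif2s1). Fitted values were below 0 for 5 of 8, beside 48.1% of all genes, with a median of -0.05 and 0 called in edgeR. Eif2ak4 (GCN2), the kinase that senses uncharged transfer RNA, gave 16.3, 15.8 and 17.9 CPM in the untreated and 20.4, 18.9 and 18.2 CPM in the CDs libraries (0.20 ± 0.13, edgeR, adjusted p = 0.994). It was higher in 3 of 3 pairs, as were 30.2% of all genes. Ppp1r15a, the stress-induced phosphatase subunit, had -0.10 ± 0.16 and Eif2ak1 (HRI), the kinase that senses haem in erythroid cells, -0.07 ± 0.11.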

How the data were processed

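Messenger RNA was selected with oligo(dT), copied with random hexamers and read from one end over 50 bases, per the labels' protocols, which name no strand-marking step. Build GRCm38.p6 and the tools RSEM 1.2.12, Bowtie2 2.2.5, HISAT2 2.0.4 and DESeq2 1.4.5 are listed without roles, per the submitters' processing notes. The authors deposited expected counts per gene (30.1% not whole; rounded here) and a table that the values show to be FPKM, which the authors normalised by length and library total. All sample columns were mapped to a library.

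Genes passing filterByExpr (12283, with 99.9% of counts) were TMM-scaled and tested with edgeR 4.0.16 (R 4.3.3, robust quasi-likelihood fit, no term but treatment). P-values were adjusted over all these genes (Benjamini-Hochberg, threshold 0.05). The ± after a log2 fold change is a standard error derived from that value and its test statistic. It comes from the fit without block unless the block is named. The code was tested on simulated data. Ratios within enzyme pairs used exact permutation tests. Deviations from group means correlated at 0.91, 0.345 and 0.938 for numbers 1, 2 and 3 (limit 0.1). The numbers shared by both groups' labels were taken to pair the libraries, which is an assumption. The labels state no pairing, and libraries of different numbers were not compared in this way. As the library numbered 3 stood apart in both groups, this check cannot tell the numbers 1 and 2 apart. Counts over numbered pairs and fits with the block rest on this assumption. The fit with a block is given where it moved calls.

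Values of 1 member, counted in the totals, are not reported here. Members and gene lists were chosen with earlier results of these data known. Library values are given, per compartment, for the 6 genes of smallest unadjusted p, the 2 most abundant, Gars and Kars, and the 3 widest enzyme pairs; from other lists up to 3 genes of smallest p. Alternatives were DESeq2 1.42.0, limma 3.58.1 (voom, and log2 FPKM with 1 or 0.1 added), other scaling and filters, the block, and left-out libraries. Coordinates and promoter sequences are from RefSeq, GRCm38.p6 (17570 genes, 99.3%, matched).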

Additional observations from a re-analysis of the deposited data

How the results depend on the processing

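No alternative called a mitochondrial gene, but the cytosolic median ran from -0.39 (without CDs 1) to 0.061 (without CDs 3) and the mitochondrial one from -0.35 to 0.054, through 0. The cytosolic median stayed below the mitochondrial one in every setting but the one without CDs 3 (difference -0.05, range -0.085 to 0.006). These settings reuse the same 6 libraries, and without untreated 3 the difference was -0.006. Within the pair numbered 2 the order was reversed (median -0.20 for cytosolic and -0.26 for mitochondrial genes). Genes called over the whole table went from 0 to 5 with the replicate block in edgeR, 6 with the block in limma-voom, 14 in DESeq2 and 1210 in DESeq2 with the block. With the block and both libraries numbered 2 or 3 left out, settings chosen after seeing the data, they were 899 and 1835, and 1 cytosolic gene was called in each (Farsa, adjusted p = 0.0365, and Hars, adjusted p = 0.0437, edgeR); DESeq2 with the block also called 1 (Hars). Over the 23 settings the adjusted p ran from 0.0365 to 1 for Farsa and from 0.0320 to 1 for Hars. The block changed no other call among the 37 genes. The causes were not tested.

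Of the 37 fitted log2 fold changes, 27 changed sign without CDs 3 and 17 without untreated 1. Aars2, Farsa, Hars, Sars, Sars2 and Yars2 kept their sign whichever single library was left out. The ranges of others, over the 6 single libraries left out, were: Aars -0.33 to 0.065, Cars -0.48 to 0.055, Cars2 -0.17 to 0.025, Dars -0.33 to 0.16, Ears2 -0.53 to 0.031, Eprs -0.33 to 0.056, Fars2 -0.086 to 0.011, Farsb -0.44 to 0.064, Gars -0.46 to 0.048, Hars2 -0.026 to 0.11, Iars -0.45 to 0.12, Iars2 -0.35 to 0.060, Kars -0.39 to 0.038, Lars -0.40 to 0.087, Lars2 -0.45 to 0.054, Mars -0.39 to 0.094, Mars2 -0.56 to 0.12, Nars -0.36 to 0.061, Nars2 -0.35 to 0.16, Pars2 -0.30 to 0.088, Qars -0.27 to 0.060, Rars -0.28 to 0.055, Rars2 -0.21 to 0.044, Tars -0.36 to 0.11, Tars2 -0.40 to 0.15, Vars -0.53 to 0.021, Vars2 -0.53 to 0.15, Wars -0.16 to 0.062, Wars2 -0.21 to 0.15, Yars -0.45 to 0.040.

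Signs also changed for Fars2 (0.007 on both FPKM scales; 0.037 with both libraries numbered 1 left out, 0.036 with the block too), Rars2 (0.008 and 0.009 on the FPKM + 1 and FPKM + 0.1 scales) and Nars2 (0.001 with FPKM + 0.1). Leaving out both libraries numbered 2, without and with the block, gave 0.076 and 0.096 for Nars2, 0.055 and 0.040 for Pars2 and 0.001 and 0.004 for Rars2. Leaving out both numbered 3 gave 0.004 and 0.005 for Wars and -0.008 and -0.011 for Hars2. Lowly counted genes such as Pars2 are the least precise, and groups of 3 libraries were not examined for outlying samples.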
